A study of Mus musculus with 8 samples.

Results

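This account concerns the enzymes that cut and crosslink the extracellular matrix of the heart, and the inhibitors that restrain them. The members were all rows of the expression table whose gene symbol belongs to the matrix metalloproteinases (Mmp), the tissue inhibitors of metalloproteinases (Timp), the ADAM and ADAMTS proteases with the ADAMTS-like proteins, or the lysyl oxidases (Lox and the Loxl genes). The choice followed names and no measured values, but it was made with earlier results of these data known. It gave 84 rows for 84 genes, out of 22206 rows in the table, of which 19572 carried a gene symbol. No row carried the names Adamts2, Loxl2, Mmp15 or Mmp27, which were not analysed here. RNA came from the left ventricle of 8 untreated male mice of strain C57/BL6J, aged 8 weeks. They comprised 4 wild type animals and 4 with cardiac-specific overexpression of microRNA-100 (called miR-100 hearts), and each was hybridised to an Affymetrix array. The sources used here name neither the promoter of the transgene nor its founder lines or the litters, so p-values describe the spread among these 8 hearts alone. Values are log2 signals, on which a difference of 1 is a doubling, and every difference is miR-100 minus wild type.

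Matrix metalloproteinases are zinc enzymes made as inactive precursors, and between them they cut fibrillar collagen, basement membrane and many soluble proteins. TIMPs bind their active sites, and Timp3 also inhibits several ADAM and ADAMTS enzymes. ADAMs are mostly membrane-anchored and release the outer parts of cell surface proteins, whereas ADAMTS enzymes are secreted and cut proteoglycans, procollagen and von Willebrand factor. Lysyl oxidases oxidise lysines of collagen and elastin, which then form covalent crosslinks. In the ventricle the balance of these activities sets how the collagen network around the muscle cells turns over.

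The raised microRNA is shown first because its seed, the stretch that pairs with target messages, defines the perturbation. The 3 mature sequences of its family, from RefSeq (GRCm38.p6), are written 5′ to 3′ with bases 2 to 8, the seed, in capitals.
miR-100-5p (chr9:41531437-41531458, plus strand): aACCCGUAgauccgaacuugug
miR-99a-5p (chr16:77598940-77598961, plus strand): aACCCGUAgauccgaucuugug
miR-99b-5p (chr17:17830194-17830215, plus strand): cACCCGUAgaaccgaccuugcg
All 3 share the seed ACCCGUA. Pairing sites in the messages of the members were not searched here.

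The promoters of neighbouring metalloproteinase genes on chromosome 9 showed a feature that the choice by name had not used. RefSeq windows running from 250 bases before to 50 after an annotated start were found for 50 of the 84 genes, 55 windows in all. In them 3 motifs were searched on both strands, namely TGANTCA (the AP-1 element, which reads the same on both strands), TATAAA or TTTATA (the TATA box) and GGGCGG or CCGCCC (the GC box). By gene order, 9 MMP genes of the table lie beside each other on chromosome 9, with at most 1 other protein-coding gene between neighbours. Of these 9 genes, 8 held TGANTCA, in 8 of their 11 windows. This compares with 0 of 7 other MMP genes with a window (0 of 8 windows) and 7.81% of all 32851 windows. Windows were found for 16 of the 21 MMP genes. Those without one, Mmp2, Mmp9, Mmp16, Mmp17 and Mmp19, all lie outside the cluster and were not searched. The TATA box was found in all 9 cluster genes (9 of 11 windows) and in 1 of the 7 others (1 of 8 windows). Of all windows, 13.6% held it. The GC box was found in 0 cluster genes (0 of 11 windows) and 6 of the 7 others (6 of 8 windows). Of all windows, 35.7% held it. The matching stretches, on the strand of each gene with the AP-1 letters in capitals, are these.
Mmp13 (chr9:7272470-7272494, plus strand): ccaaagtggTGACTCAtcactatca
Mmp12 (chr9:7347321-7347345, plus strand): catcaacagTGAGTCAgatagagga
Mmp1b (chr9:7388104-7388128, minus strand): tacaaagccTGAGTCAtatagcctc
Mmp3 (chr9:7445767-7445791, plus strand): aagcaattaTGAGTCAgttttcggg
Mmp1a (chr9:7464059-7464083, plus strand): tgtcaaccaTGAGTCAcatagcctc
Mmp10 (chr9:7502270-7502294, plus strand): gcacccatgTGAGTCAtgcttagtg
Mmp20 (chr9:7628127-7628151, plus strand): tttgagacaTGAATCAtcacttaca
Mmp7 (chr9:7692018-7692042, plus strand): gtgtgcaaaTGAGTCAcctatttcc
The capitals begin 35 bases before the annotated start in Mmp13 and 95 bases before it in Mmp20, the nearest and farthest of the 8. A match describes letters and does not show that a factor binds.

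No member passed the test between the groups. With limma, a linear model with moderated variances fitted over all 22206 rows, 0 of 84 had an adjusted p under 0.05, against 31 rows (0.140%) in the whole table, and the lowest adjusted p of a member was 0.302. At an unadjusted p under 0.05 there were 10 members, 11.9% of the 84, beside 7.73% of all rows. Of the 10, 4 were higher in miR-100 hearts, where 3.55% of all rows were higher at that level, and 6 were lower, where 4.17% of all rows were lower. The groups did not overlap for 6 members, 7.14%, beside 4.54% of all rows. The median difference of the members was -0.05, and that of all rows was -0.015. A total of 33 members had differences above 0 and 51 below, and 77 of 84 differences were smaller than 0.5 in size. In ventricular tissue, fewer cells of a type and less RNA per cell cannot be told apart.

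Many of the members were dim on these arrays. The rows of 1091 olfactory receptor genes, which chiefly serve smell, gave a reference for weak signal. The median of their row means was 3.86, against 5.70 for all rows, and the 95th percentile was 5.05. Of the 84 members, 35 lay above this level and 49 at or below it. Of the 10 members with an unadjusted p under 0.05, 4 (Mmp3, Adam18, Adamts8 and Adam7) lay at or below it, and all 4 were lower in miR-100 hearts. Among all rows at or below that level, 340 of 489 with an unadjusted p under 0.05 were also lower. Among rows above it the corresponding figures were 587 of 1227. The share with an unadjusted p under 0.05 (limma) also rose with signal. Above the level it was 6 of 35 members (17.1%), beside 9.49% of all such rows. At or below it the share was 4 of 49 members (8.16%), beside 5.27%.

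**Figure D1:**
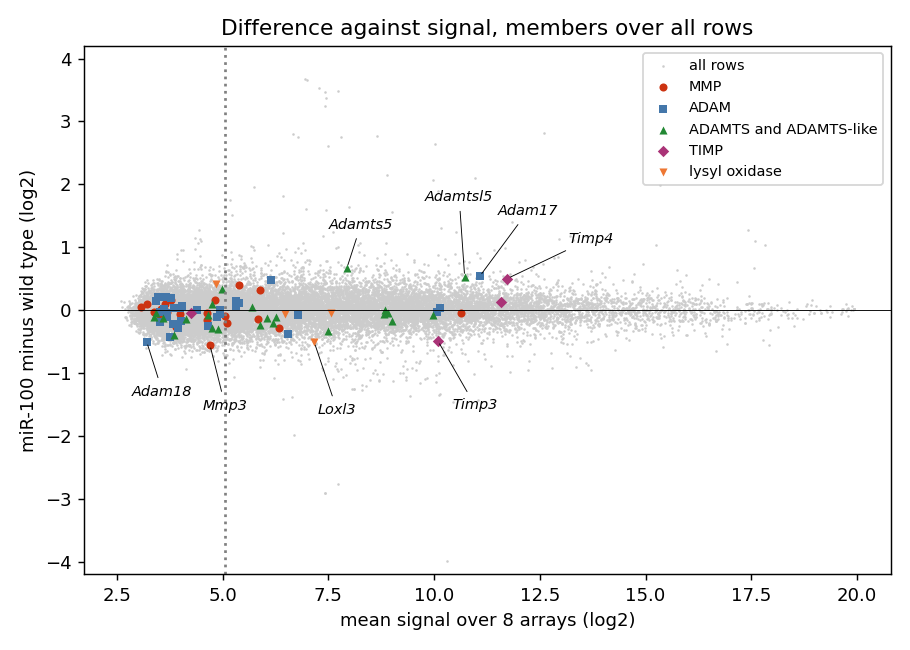
Difference between miR-100 and wild type (log2) against the mean signal over 8 arrays (log2), for all 22206 rows in grey and the 84 members in colour by family. The dotted line marks the 95th percentile of olfactory receptor rows, 5.05, and the members lie between -0.55 and 0.67.

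The arrays bore the marks of ventricular muscle. Correlations between arrays ran from 0.988 to 0.993. All 7 heart muscle markers (such as Myh6 and Tnnt2) had row means of 15.59 or more, while the atrial markers Myl4, Myl7 and Sln had row means between 4.03 and 7.74. On a principal component analysis wild type replicate 2 lay apart, at -38.2 on the first component against -13.0 to -3.49 for the other wild type arrays, and miR-100 replicate 2 lay at 30.8 against 8.96 to 13.5 for the others of its group. Among fibroblast markers, which the matrix genes might follow, 7 of 8 were measured, and 0 had an unadjusted p under 0.05. Their mean signal ran from 10.37 to 10.72 in wild type and from 10.23 to 10.60 in miR-100 hearts.

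The TIMPs, the inhibitors, were measured for all 4 genes, and 0 had an unadjusted p under 0.05. Timp4, the family member best known from heart muscle, gave 11.46, 11.19, 11.66 and 11.60 in wild type hearts and 12.27, 12.25, 12.34 and 11.05 in miR-100 hearts. Replicates 1 to 3 of the miR-100 group lay above all wild type values, and replicate 4 lay below them. The difference was 0.50 (SE 0.26, 95% confidence interval -0.05 to 1.05, limma adjusted p = 0.694), and without miR-100 replicate 4 it was 0.81. Timp3, the matrix-bound inhibitor, gave 9.92, 9.72, 10.43 and 11.26 against 9.83, 9.65, 10.51 and 9.39. Its groups overlapped broadly, the wild type SD was 0.69, and the difference of -0.49 had an interval from -1.16 to 0.18. Without wild type replicate 4 it was -0.18, and without miR-100 replicate 3 it was -0.71. Timp2, which also helps Mmp14 to activate Mmp2, gave 11.80, 11.14, 11.69 and 11.44 against 11.65, 11.67, 11.83 and 11.42, a difference of 0.13 (interval -0.24 to 0.49). Timp1, the form induced in injury and inflammation, was dim at 3.89, 4.70, 4.09 and 4.40 against 4.28, 4.75, 4.04 and 3.81. Its difference was -0.05 (interval -0.53 to 0.43).

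The lysyl oxidases were measured for 4 genes. Loxl3, a member with scavenger receptor domains, gave 7.31, 7.37, 7.61 and 7.37 in wild type hearts and 6.84, 6.89, 7.32 and 6.60 in miR-100 hearts. All wild type values but the lowest lay above all miR-100 values, with miR-100 replicate 3 reaching into the wild type range. The difference was -0.50 (SE 0.17, interval -0.87 to -0.14, unadjusted p = 0.0106, limma adjusted p = 0.412). Lox, the founding enzyme of the family, gave 4.57, 4.53, 4.70 and 4.76 against 5.33, 4.78, 5.52 and 4.57, around the level of the olfactory reference. Its miR-100 values spread more widely, with an SD of 0.45 against 0.11, and the difference was 0.41 (interval -0.02 to 0.84, limma adjusted p = 0.679), or 0.25 without miR-100 replicate 3. Loxl1, which acts mainly on elastic fibres, gave 7.72, 7.50, 7.71 and 7.46 against 7.39, 7.72, 7.45 and 7.63. Loxl4 gave 6.38, 7.08, 6.30 and 6.27 against 6.59, 6.42, 6.95 and 5.80. The differences of these last genes were -0.05 (interval -0.36 to 0.26) and -0.07 (interval -0.59 to 0.46), and in each the groups overlapped throughout.

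**Figure D2:**
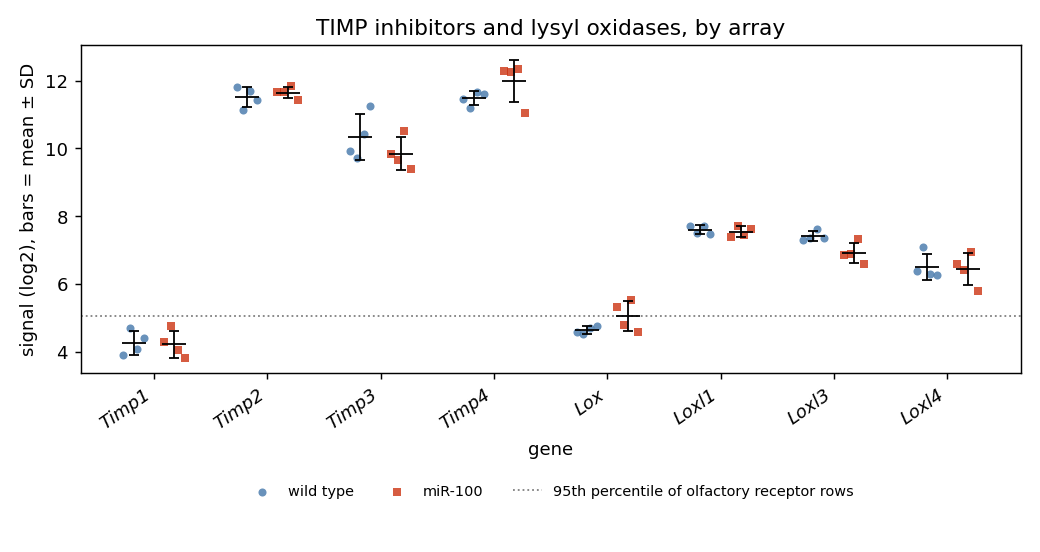
Signal (log2) of the 4 TIMP genes and 4 lysyl oxidase genes on each array, with circles for wild type, squares for miR-100 and bars for the mean ± SD (n = 4 each). Timp4 is higher on 3 of the 4 miR-100 arrays and lower on the fourth, at 11.05, and Timp1 lies below the dotted olfactory reference of 5.05.

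Among 21 matrix metalloproteinases, 7 lay above the olfactory reference, 8 differences were above 0 and 13 below (10 and 11 after quantile normalization), and the median was -0.05. Mmp3 (stromelysin-1, which cuts proteoglycans and activates other metalloproteinases) was the 1 member with an unadjusted p under 0.05. It gave 4.91, 5.03, 5.05 and 4.90 in wild type hearts and 4.88, 4.27, 4.31 and 4.24 in miR-100 hearts. The groups did not overlap, but miR-100 replicate 1 lay within 0.02 of the lowest wild type value and apart from the other miR-100 arrays. The difference was -0.55 (SE 0.17, interval -0.91 to -0.19, unadjusted p = 0.00564, limma adjusted p = 0.348), in a row whose mean of 4.70 was below the olfactory reference. Its difference was the most negative of the 84. The full window of its promoter, with the AP-1 element and a TATA box in capitals, is shown because its unadjusted p was among the lowest (limma).
Mmp3 (chr9:7445572-7445871, plus strand): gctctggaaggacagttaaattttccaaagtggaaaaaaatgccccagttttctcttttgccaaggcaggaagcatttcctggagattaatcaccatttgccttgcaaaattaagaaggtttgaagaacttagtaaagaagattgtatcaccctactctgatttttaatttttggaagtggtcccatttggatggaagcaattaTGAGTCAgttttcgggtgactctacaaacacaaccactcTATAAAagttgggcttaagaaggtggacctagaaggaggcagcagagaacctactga

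The other genes of the cluster gave smaller differences than Mmp3. In the order of the cluster, Mmp13 (collagenase-3) differed by -0.21, Mmp12 (macrophage elastase) by -0.15, and Mmp1b by -0.27. Beyond Mmp3, Mmp1a differed by 0.02, Mmp10 by -0.03, Mmp8 by -0.07, Mmp20 (enamelysin, of tooth enamel) by -0.09 and Mmp7 (matrilysin) by 0.16. Several of these values are near 0 and changed sign without single arrays (Mmp12, Mmp1a, Mmp10, Mmp8 and Mmp20), so no direction is given for the cluster. Of the 9 genes Mmp3 alone had an unadjusted p under 0.05. Whether Mmp3 differed from its neighbours was not tested. The row means of the 9 ran from 3.37 to 5.11. Only Mmp13 (5.11) and Mmp20 (5.06) lay above the olfactory reference of 5.05, by a small margin, and the others lay below it. Mmp10, Mmp8, Mmp1a and Mmp7 also lay below the median of the olfactory rows, 3.86.

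The gelatinases and the main activator of Mmp2 showed narrow or overlapping groups. Mmp2 (gelatinase A) was bright, at 10.70, 10.78, 11.14 and 10.05 in wild type hearts and 10.49, 10.29, 11.17 and 10.54 in miR-100 hearts, a difference of -0.05 (interval -0.56 to 0.47). Mmp14, the membrane-type enzyme that activates Mmp2, gave 6.02, 6.09, 5.89 and 5.67 against 5.89, 6.01, 5.60 and 5.60, a difference of -0.14 (interval -0.48 to 0.20). The ranges overlapped for both genes. Mmp9 (gelatinase B) gave 3.41, 3.10, 3.16 and 3.02 against 3.37, 3.28, 3.09 and 3.33. Mmp8, the neutrophil collagenase, gave 3.59, 4.26, 3.17 and 3.10 against 3.32, 3.54, 3.64 and 3.36. Neutrophils store Mmp8 and Mmp9, and both rows lay below the olfactory reference. The neutrophil markers S100a8, S100a9, Mpo and Retnlg had row means from 3.32 to 5.92, and 3 of the 4 were also at or below that reference. All 4 had differences below 0, with a median of -0.14. S100a8, a calcium-binding protein of neutrophil granules and cytosol, gave 3.43, 3.34, 3.74 and 3.51 against 3.08, 3.24, 3.16 and 3.05, without overlap. Its difference was -0.37 (unadjusted p = 0.0213, limma adjusted p = 0.519). The mean signal of the 4 markers was 4.56 to 4.63 in wild type and 4.30 to 4.66 in miR-100 hearts, and their part in these results was not tested.

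The ADAMTS proteases numbered 18, of which 9 lay above the olfactory reference. Their differences were above 0 for 4 and below 0 for 14, with a median of -0.12. Adamts5, a secreted enzyme that cuts the proteoglycans versican and aggrecan, had the largest difference of all 84 members. It gave 7.86, 7.36, 7.65 and 7.55 in wild type hearts and 8.63, 8.20, 8.42 and 7.83 in miR-100 hearts. Replicates 1 to 3 of the miR-100 group lay above every wild type heart, and replicate 4 fell just under the highest of them. The difference was 0.67, a ratio of 1.59 (SE 0.19, interval 0.26 to 1.07, unadjusted p = 0.00331, limma adjusted p = 0.302).

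Adamts1 lies beside Adamts5 on chromosome 16 and cuts many of the same proteoglycans, and its values differed little between the groups. It gave 9.09, 8.17, 9.28 and 9.21 against 8.24, 9.13, 9.13 and 9.07, with 1 low array in each group, and the difference was -0.05 (interval -0.61 to 0.52). Adamts8, another enzyme of this proteoglycan-cutting group, was dim at 3.95, 3.91, 4.00 and 4.31 against 3.49, 3.49, 3.87 and 3.72. Its groups did not overlap, and the difference was -0.40 (interval -0.73 to -0.07, limma adjusted p = 0.527). Adamts4 gave 3.54, 3.26, 3.53 and 3.45 against 3.43, 3.24, 3.25 and 3.39. The von Willebrand factor protease Adamts13 gave 3.48, 3.67, 3.41 and 3.23 against 3.65, 3.19, 3.34 and 3.45. The ranges of these last genes overlapped, and their differences were -0.12 (interval -0.42 to 0.18) and -0.04 (interval -0.38 to 0.30).

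ADAMTS-like proteins resemble ADAMTS enzymes but carry no protease domain, and several bind fibrillin. Of 5 measured, Adamtsl5 gave 10.47, 10.22, 10.65 and 10.50 in wild type hearts and 10.89, 11.12, 11.19 and 10.75 in miR-100 hearts. The groups did not overlap, and the difference was 0.53, a ratio of 1.44 (SE 0.16, interval 0.19 to 0.87, unadjusted p = 0.00498, limma adjusted p = 0.338). The other 4 genes had differences between -0.33 and 0.10.

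The ADAM genes numbered 32, with 9 above the olfactory reference, 16 differences above 0 and 16 below. Adam17, the sheddase that releases tumour necrosis factor and ligands of the EGF receptor, gave 10.73, 10.73, 10.75 and 11.03 in wild type hearts. It gave 11.61, 11.19, 11.05 and 11.53 in miR-100 hearts. The groups did not overlap, although wild type replicate 4 came within 0.02 of the lowest miR-100 array. The difference was 0.54, a ratio of 1.45 (SE 0.16, interval 0.18 to 0.89, unadjusted p = 0.00606, limma adjusted p = 0.355). Adam10, the related sheddase that opens Notch receptors, gave 10.26, 10.17, 10.07 and 9.97 against 9.99, 10.64, 9.82 and 10.15. Its ranges overlapped and its difference was 0.03 (interval -0.35 to 0.42). Adam19, which cuts neuregulin and takes part in forming the heart valves, gave 5.87, 6.17, 6.02 and 5.56 against 6.00, 6.28, 6.34 and 6.93. The highest value was miR-100 replicate 4, the groups overlapped, and the difference was 0.48 (interval 0.04 to 0.92, limma adjusted p = 0.591). Without that array it was 0.30, with an unadjusted p of 0.125.

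The promoters of Adam17 and Adamtsl5 are shown because, with Adamts5 and Mmp3, these genes had the lowest unadjusted p of the members (limma). No window was found for Adamts5. Adam17 and Adamtsl5 were also the bright members whose groups did not overlap and whose signal was higher. Each held a GC box, in capitals, and neither the AP-1 element nor the TATA box. A GC box was found in 26 of the 50 member genes with a window. Adam19, also higher at an unadjusted p under 0.05 (limma), held both the AP-1 element and a GC box in the same window. Of the lower members at that level only Mmp3 had a window, so no contrast between higher and lower genes is drawn.
Adam17 (chr12:21373583-21373882, minus strand): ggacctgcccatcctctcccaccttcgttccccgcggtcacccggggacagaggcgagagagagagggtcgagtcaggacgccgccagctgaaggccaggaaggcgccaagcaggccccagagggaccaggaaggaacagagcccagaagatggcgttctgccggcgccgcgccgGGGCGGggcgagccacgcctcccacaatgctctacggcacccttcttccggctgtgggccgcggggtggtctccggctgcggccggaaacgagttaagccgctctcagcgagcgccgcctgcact
Adamtsl5 (chr10:80348399-80348698, minus strand): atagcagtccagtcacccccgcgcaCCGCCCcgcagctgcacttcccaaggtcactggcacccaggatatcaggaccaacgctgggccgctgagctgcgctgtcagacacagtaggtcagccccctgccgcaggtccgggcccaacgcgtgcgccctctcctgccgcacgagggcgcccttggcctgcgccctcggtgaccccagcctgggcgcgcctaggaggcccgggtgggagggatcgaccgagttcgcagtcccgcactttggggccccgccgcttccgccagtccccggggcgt

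Of the 32 ADAMs, 20 belong to neither the catalytically active ADAMs of body tissues nor the neural ADAMs, and most of them are known from testis or epididymis. Of these 20, 3 lay above the olfactory reference. Adam18, a sperm surface protein, gave 3.27, 3.63, 3.52 and 3.40 in wild type hearts and 2.75, 2.68, 3.13 and 3.26 in miR-100 hearts. Its groups came within 0.01 of each other without overlapping, and the difference was -0.50 (interval -0.86 to -0.14, limma adjusted p = 0.411). Adam7, of the epididymis, gave 4.38, 3.85, 3.63 and 4.02 against 3.37, 3.28, 3.82 and 3.68, a difference of -0.43 (interval -0.84 to -0.03, limma adjusted p = 0.611). Adam4, a testis form, gave 6.95, 6.62, 6.61 and 6.77 against 6.49, 6.48, 6.12 and 6.31, a difference of -0.39 without overlap (interval -0.71 to -0.06, limma adjusted p = 0.527). These 3 genes are known for reproductive tissue, and 2 of the 3 rows were dim.

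**Figure D3:**
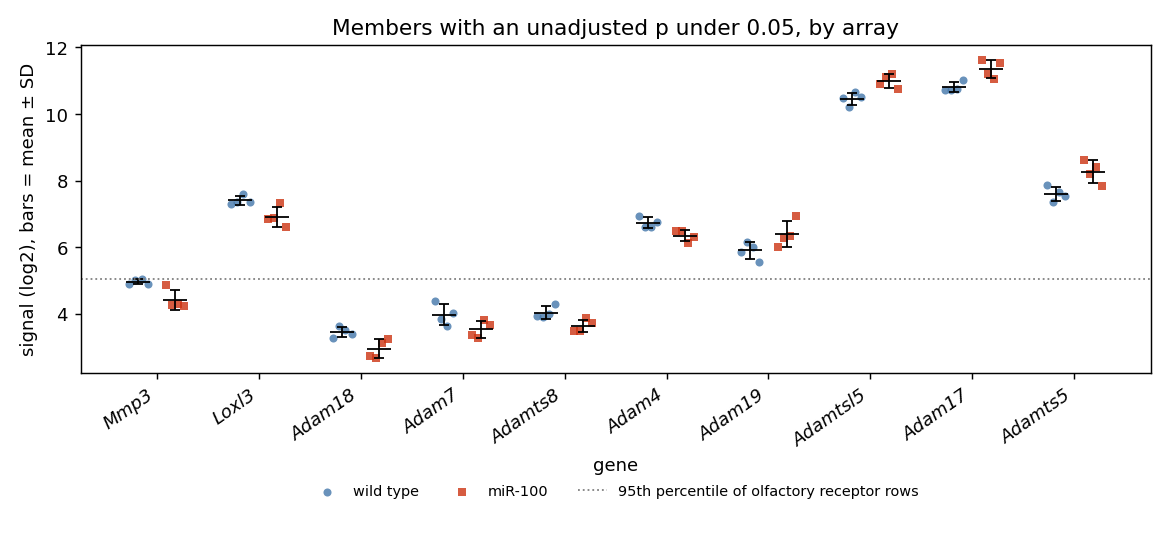
Signal (log2) on each array for the 10 members with an unadjusted p under 0.05, ordered by difference, with circles for wild type, squares for miR-100 and bars for the mean ± SD (n = 4 each). Mmp3, Adam18, Adam7 and Adamts8 have means below the dotted olfactory reference of 5.05, and Adamtsl5, Adam17 and Adamts5 have the largest positive differences.

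The 59 members without values above had differences from -0.33 to 0.40 and unadjusted p of 0.0529 or more. Grouped by role, the median difference of a group lay between -0.14 and 0.19. The 6 ADAMTS enzymes outside the proteoglycan, procollagen, cartilage and von Willebrand factor groups all had differences below 0, from -0.31 to -0.07, with 0 at an unadjusted p under 0.05.

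**Figure D4:**
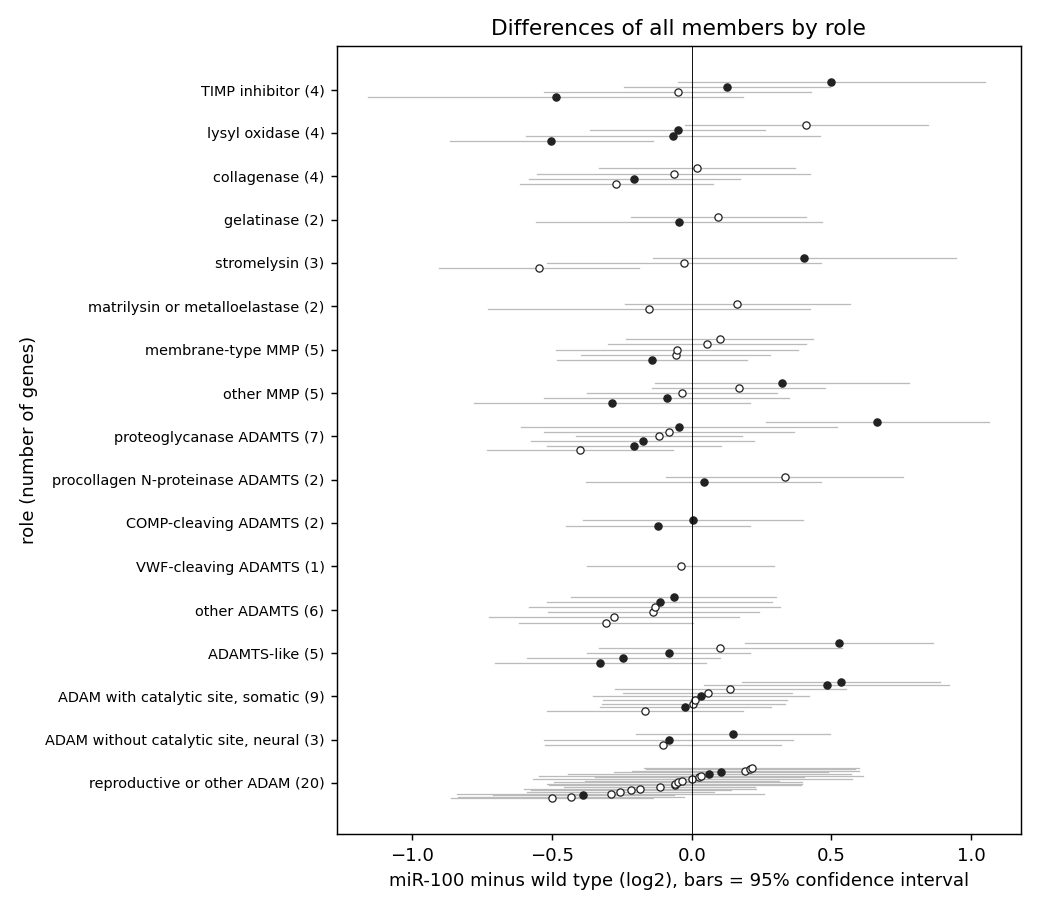
Differences between miR-100 and wild type (log2) for all 84 members by role, with the 95% confidence interval of each from limma. Filled points lie above the olfactory reference and open points at or below it, and in 10 of the 84 genes the interval leaves out 0 before adjustment.

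Partners of these enzymes, from lists of proteases, inhibitors, fibre proteins and substrates, gave 0 genes with an adjusted p under 0.05 (limma). Of 39 measured substrates, 3 (7.69%) were higher and 2 (5.13%) lower at an unadjusted p under 0.05, beside 3.55% and 4.17% of all rows. Most genes of each list lay above the olfactory reference. In both directions together, 9.49% of rows above that reference had such a p, against 7.73% of all rows. Tnfrsf1a, the tumour necrosis factor receptor that Adam17 sheds, gave 8.50, 7.77, 8.48 and 8.29 in wild type hearts and 8.73, 8.90, 8.85 and 8.69 in miR-100 hearts. The groups did not overlap, and the difference was 0.53 (SE 0.17, limma adjusted p = 0.404). Hbegf, a growth factor precursor that Adam17 also cuts, gave 6.05, 6.05, 5.61 and 5.79 against 5.01, 5.40, 5.22 and 5.45. It was lower on every miR-100 array than on any wild type array, with a difference of -0.61 (SE 0.16, limma adjusted p = 0.262). Erbb4, a receptor for Hbegf and neuregulin, differed by -0.52 (limma adjusted p = 0.463). The hyaluronan receptor gene Cd44 and the syndecan gene Sdc4, whose products are shed from the surface, differed by 0.78 and 0.57 (limma adjusted p of 0.404 and 0.465). The median difference of the substrates was 0.05.

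Of 27 other matrix proteases, 0 were higher and 3 (11.1%) lower at an unadjusted p under 0.05, beside 3.55% and 4.17% of all rows. Mme (neprilysin, which degrades natriuretic and other peptides) gave 7.89, 9.09, 8.24 and 8.59 against 7.56, 7.78, 7.66 and 7.61. Its groups did not overlap, the wild type values spread far more widely (SD 0.51 against 0.09), and the difference was -0.80 (SE 0.22, limma adjusted p = 0.278). Plat, the tissue plasminogen activator, differed by -0.51 (limma adjusted p = 0.480), and Bmp1, the procollagen C-proteinase, by -0.35 (limma adjusted p = 0.582). Pcolce, the protein that enhances the work of Bmp1, was the 1 of 23 inhibitors and cofactors (4.35%) that was higher at that level, and 0 were lower. It gave 7.67, 8.42, 7.76 and 7.88 against 8.37, 8.79, 8.62 and 8.51, a difference of 0.64 (SE 0.18, limma adjusted p = 0.306). All miR-100 values but the lowest lay above the highest wild type value, that of replicate 2.

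The list for crosslinking and fibre assembly had 33 measured genes. At an unadjusted p under 0.05 (limma), 1 (3.03%) was higher and 3 (9.09%) were lower, beside the same 3.55% and 4.17% of all rows. The 3 include Lcp1, an actin-bundling protein of blood cells rather than a matrix protein. Efemp1, a fibulin of elastic tissue, differed by 0.72 without overlap (limma adjusted p = 0.365), and Fbln1, another fibulin, by -0.68 (limma adjusted p = 0.457), or by -0.43 without miR-100 replicate 4. Mfap2, a fibrillin-bound glycoprotein, differed by -0.39 (limma adjusted p = 0.646). Its groups overlapped, and its row mean of 4.24 was below the olfactory reference. Lcp1 differed by -0.45 (limma adjusted p = 0.624). Among 5 smooth muscle and pericyte markers, Acta2, the smooth muscle actin that is also made by activated fibroblasts, gave 12.86, 12.71, 12.72 and 12.61 against 13.74, 14.01, 14.66 and 12.94. Its difference of 1.11 (SE 0.27) had a limma adjusted p of 0.203, and without single arrays it ran from 0.84 (without miR-100 replicate 3) to 1.41 (without miR-100 replicate 4). The limma adjusted p in those 8 fits ran from 0.0442, in the fit without miR-100 replicate 4, to 0.398, and the other fits did not pass. The other 4 markers had differences from -0.19 (Tagln) to 0.03 (Rgs5), and the median of the 5 was -0.06. The mean signal of all 5, Acta2 included, ran from 10.72 to 10.91 in wild type and from 10.65 to 11.16 in miR-100 hearts, and the part of such cells in the members' values was not tested.

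**Figure D5:**
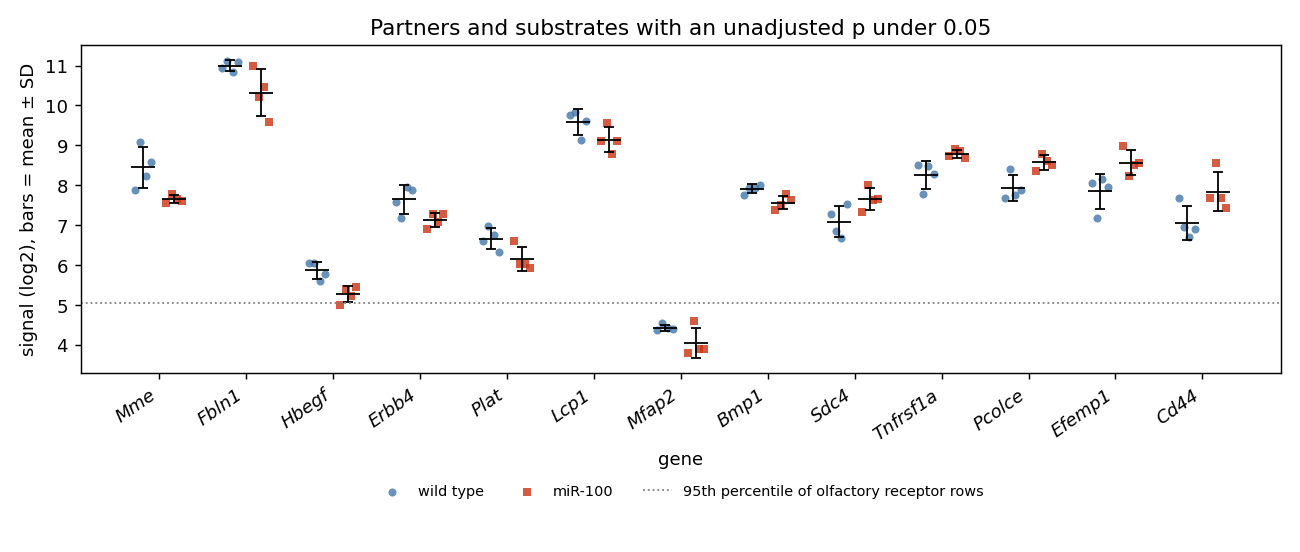
Signal (log2) on each array for the 13 partner and substrate genes with an unadjusted p under 0.05, from lists of other proteases, inhibitors and cofactors, fibre proteins and substrates, with circles for wild type, squares for miR-100 and bars for the mean ± SD (n = 4 each). Mme and Hbegf are lower, and Tnfrsf1a and Efemp1 higher, on every miR-100 array than on any wild type array.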

How the data were processed

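Total RNA was extracted with TriPure and converted with the Affymetrix WT Plus kit, per the labels' protocols. The authors deposited log2 signals for transcript clusters (probes against a single transcribed region). Per the submitters' processing notes, the software was Transcriptome Analysis Console 4.0. How they were summarized and normalized, and on which build, is not given in the sources used here. All 8 columns had medians from 5.70 to 5.74. Values near the highest, 19.93, may be compressed, which was not tested. Symbols came from the platform annotation, which gave 1 symbol for 19572 rows and none for 2634. The groups were compared with limma 3.58.1 in R 4.3.3 on the deposited log2 values, without covariates or filters, with Benjamini-Hochberg adjustment over all 22206 rows and a threshold of 0.05. Where a list gene had several rows, the brightest was used. The fit was tested on simulated data. Detection was required there only for a change far larger than any member's, so detection at the members' size was not established. The number of arrays limits precision, and the members' standard errors (SE) ran from 0.13 to 0.31. An exact permutation test of 4 against 4 arrays cannot go below 0.0286.

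The members and lists were chosen with earlier results of these data known. Genes named with values were the members with an unadjusted p under 0.05, the TIMPs and lysyl oxidases, the enzymes Mmp2, Mmp3, Mmp8, Mmp9, Mmp14, Adam10, Adam17, Adamts1, Adamts4, Adamts5 and Adamts13, the 3 largest differences in each direction above the olfactory reference, and list genes with an unadjusted p under 0.05. The chromosome 9 cluster and Acta2 were named after their values were seen. Alternatives covered moderation, weights, normalization, filters, the threshold, a replicate block and leaving out each array.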

Additional observations from a re-analysis of the deposited data

Results flagged for a closer look

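In 94 sets of 4 arrays (47 named genes, each in both groups), 9 had 1 array far from the other 3, and chance gives such a gap in about 5% of sets. For Adam17, wild type replicate 4 was at 11.03 against 10.73 to 10.75 in the others. For Timp4, miR-100 replicate 4 was at 11.05 against 12.25 to 12.34. Mmp3 had miR-100 replicate 1 at 4.88 against 4.24 to 4.31, and Adamts1 had the same array at 8.24 against 9.07 to 9.13. That array was also apart for Plat, at 6.61 against 5.93 to 6.04. Loxl4 had wild type replicate 2 at 7.08 against 6.27 to 6.38. In Mfap2, miR-100 replicate 2 was at 4.60 against 3.79 to 3.89. Mmp10 had wild type replicate 4 at 3.14 against 3.45 to 3.49, and Mmp13 had wild type replicate 3 at 5.02 against 5.26 to 5.29.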

How the results depend on the processing

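The count of members past the threshold was 0 in the main limma fit (10 at an unadjusted p under 0.05) and 0 under every alternative run, including an adjusted p of 0.1 and each fit without an array. Members at an unadjusted p under 0.05 numbered 6 among rows above the 50th percentile of row means, where fewer members are tested, and 7 to 12 without single arrays. Of the 10 members, Adam17, Adam18, Adamtsl5, Adamts5, Loxl3 and Mmp3 kept an unadjusted p under 0.05 in all 8 fits without an array, Adam4 in 6, Adamts8 in 5, and Adam7 and Adam19 in 4. With an intensity trend 65 rows of the whole table passed, and 11 to 27 without single arrays. The cause of the higher count was not tested. The members' median ran from -0.08 to -0.01 without single arrays. With array weights 4 small differences changed sign, to 0.0061 for Loxl4, 0.0058 for Mmp8, 0.036 for Timp1 and -0.012 for Mmp1a, and with quantile normalization Mmp10 moved to 0.0039.

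Without single arrays, differences near 0 also changed sign, from -0.13 to 0.14 for Adam10, -0.30 to 0.17 for Adamts1, -0.12 to 0.034 for Adamts13, -0.11 to 0.0025 for Loxl1 and -0.24 to 0.15 for Loxl4. The ranges were -0.25 to 0.11 for Mmp2, -0.21 to 0.18 for Mmp8, -0.29 to 0.12 for Mmp10, -0.36 to 0.043 for Mmp12, -0.087 to 0.10 for Mmp1a and -0.21 to 0.075 for Mmp20. For Timp1 and Timp2 they were -0.23 to 0.093 and -0.00083 to 0.22. No direction is read from these genes. With the replicate number as a block (replicate block), 21 rows, 0 members and 8 members at an unadjusted p under 0.05 were found. After subtraction of group means, same-numbered arrays of the groups correlated between -0.06 and 0.07. Of the 4, 1 correlated best with its own number. The labels do not say whether a shared number means a shared litter or batch, and these values cannot decide it.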
